A study of Mus musculus with 37 samples.

Results

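The genes described here are 9 imprinted genes that are expressed from the paternal allele, because the maternal allele carries DNA methylation at their control region: Peg3, Usp29, Peg10, Sgce, Mest, Plagl1, Impact, Nnat and Nap1l5. They were taken by symbol, and all 9 were found among the 24318 genes of the deposited E10.5 and E11.5 tables. The values are RPKM, read values scaled by transcript length and by library size, in RNA of mouse primordial germ cells (PGCs), from which eggs and sperm arise. Per the labels' protocols, dams with Oct4-IRES-Gfp and homozygous for Dnmt1 2lox were mated with males carrying Blimp1-Cre. GFP-positive cells were sorted from staged embryos, and their RNA was amplified before library preparation. The knockout embryos, here DCKO as in the sample titles, are labelled Dnmt1 -/-, and the others, here controls, are labelled wild type. The fluorescent reporter came from the dam in both groups, and the labels do not say which Dnmt1 or Cre alleles the controls carried. Blimp1-Cre acts in PGCs and in the other cells that use Blimp1, so deletion is not expected in every cell of the embryo. At E10.5, 2 female and 1 male DCKO libraries were set beside 2 female and 2 male controls. At E11.5, 6 female and 4 male DCKO libraries were set beside 4 female and 4 male controls. Whether the libraries of 1 group are from different embryos is not in the labels, so p-values measure the spread between these libraries, which may be technical in part.

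Imprinted genes keep a mark from the parent of origin. At the genes studied here the oocyte methylates a CpG-rich control region, the sperm does not, and after fertilisation DNMT1 copies the maternal methylation at each replication, while ZFP57, bound at methylated TGCCGC motifs, protects it. PGCs are the cells in which this mark is erased, so that the next generation can be marked by sex. Loss of the maternal mark in a somatic cell allows expression from both alleles. The tables do not separate the alleles, so only the total RNA of each gene was measured.

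The windows upstream of 4 of these genes are shown with their CpGs, the kind of site that is methylated. Methylation was not measured, and whether these windows lie in the control regions was not tested. The slopes on a somatic marker level, given later, passed the test for Mest, Plagl1 and Nnat, while that of Peg3 did not (adjusted p = 0.114); the difference between those slopes was not tested. Each is the 250 bases before the annotated start, from RefSeq on build GRCm38.p6, written 5′ to 3′ on the gene's strand, with every CpG in capitals. The expression files use build mm9, and no position was carried between the builds. The windows are chr7:6730420-6730669 on the minus strand for Peg3, chr6:30737800-30738049 on the plus strand for Mest, chr10:13090582-13090831 on the plus strand for Plagl1 and chr2:157559828-157560077 on the plus strand for Nnat.
Peg3: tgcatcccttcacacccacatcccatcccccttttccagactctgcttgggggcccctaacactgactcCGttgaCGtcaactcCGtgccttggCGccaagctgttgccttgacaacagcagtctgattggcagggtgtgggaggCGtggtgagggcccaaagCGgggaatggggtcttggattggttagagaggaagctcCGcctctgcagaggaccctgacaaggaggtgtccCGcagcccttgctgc
Mest: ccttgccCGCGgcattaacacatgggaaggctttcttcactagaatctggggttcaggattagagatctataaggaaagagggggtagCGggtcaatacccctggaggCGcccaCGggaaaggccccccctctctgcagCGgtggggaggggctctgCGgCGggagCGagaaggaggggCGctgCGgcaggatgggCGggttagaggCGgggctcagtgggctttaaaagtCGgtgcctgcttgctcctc
Plagl1: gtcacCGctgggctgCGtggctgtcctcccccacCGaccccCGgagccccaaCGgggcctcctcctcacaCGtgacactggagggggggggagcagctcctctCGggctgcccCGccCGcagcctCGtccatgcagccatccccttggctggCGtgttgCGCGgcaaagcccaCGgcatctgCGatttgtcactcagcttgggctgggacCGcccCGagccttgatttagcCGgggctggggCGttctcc
Nnat: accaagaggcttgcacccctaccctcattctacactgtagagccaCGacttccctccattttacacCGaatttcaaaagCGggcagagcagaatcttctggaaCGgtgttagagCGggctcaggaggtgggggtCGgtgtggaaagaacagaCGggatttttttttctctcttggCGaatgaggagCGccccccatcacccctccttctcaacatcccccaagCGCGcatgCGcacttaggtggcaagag

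The Plagl1 window held 19 CpGs, the Mest window 14, the Nnat window 12 and the Peg3 window 8, beside a median of 6 over the 32851 windows of this kind. Of all windows, 80.3% held fewer CpGs than that of Plagl1, 70.6% than Mest, 66.5% than Nnat and 57.0% than Peg3. The hexamer TGCCGC was searched on both strands. It occurred 2 times in the Mest window, 1 time in that of Plagl1 and 0 times in those of Peg3 and Nnat, and 8.68% of all windows held it. Mest had 3 annotated starts, so its counts depend on the start. The window shown and another that begins 3 bases further along each held 14 CpGs and 2 copies of the hexamer, while that of the most upstream start held 7 CpGs and 0 copies. The starts of Peg3 and Usp29 face away from each other, and the 300-base windows around them, on opposite strands, share 263 bases. The Usp29 window held 14 CpGs and that of Nap1l5 held 10. Of the 9 genes, 6 were matched in this table; Peg10, Sgce and Impact were not.

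The targeted gene and the germ cell markers were examined first. Dnmt1 was 13.0 to 59.4 RPKM in the E11.5 DCKO libraries and 72.9 to 296 RPKM in the controls, with no overlap, a log2 difference of -2.07 (SE 0.34, limma adjusted p = 0.0355). At E10.5 its log2 difference was also -2.07, again with no overlap (limma adjusted p = 0.991). Dppa3, a marker of PGCs, ran from 153 to 2821 RPKM at E11.5 and Pou5f1 from 7.15 to 499 RPKM. Between genotypes at E11.5, 0 of 11 germ cell markers passed the test, beside 3 of 12667 genes. Male control 3 at E11.5 stood apart. Its mean log2 level of the germ cell markers was 3.70, while that of the other 17 libraries was 5.26 to 6.96. The next lowest were female DCKO 4 (5.26) and male DCKO 1 (5.27), and every library besides these was at 5.73 or more.

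Peg3 had the highest median of the 9 genes at both stages. Nap1l5 reached 1 RPKM in 2 of 18 E11.5 libraries, Sgce in 8 and Usp29 in 9. At E11.5 the median over 18 libraries was 208 RPKM for Peg3, 49.8 for Mest, 12.0 for Nnat, 11.4 for Impact, 10.8 for Peg10, 4.60 for Plagl1, 1.07 for Usp29, 0.471 for Sgce and 0 for Nap1l5. Neighbours in this order overlapped in their ranges in every case. At E10.5 the medians over 7 libraries ran from 164 RPKM for Peg3 down through Peg10 (15.2), Mest (12.8), Impact (11.3), Nnat (6.22), Plagl1 (2.11), Usp29 (0.969) and Nap1l5 (0.337) to Sgce, listed at 0 in 4 of 7 libraries. There, Peg3 (105 to 258 RPKM) did not overlap Peg10 (1.41 to 46.1 RPKM), and every other pair of neighbours overlapped. The stages come from separate tables and are set side by side with no test.

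**Figure D1:**
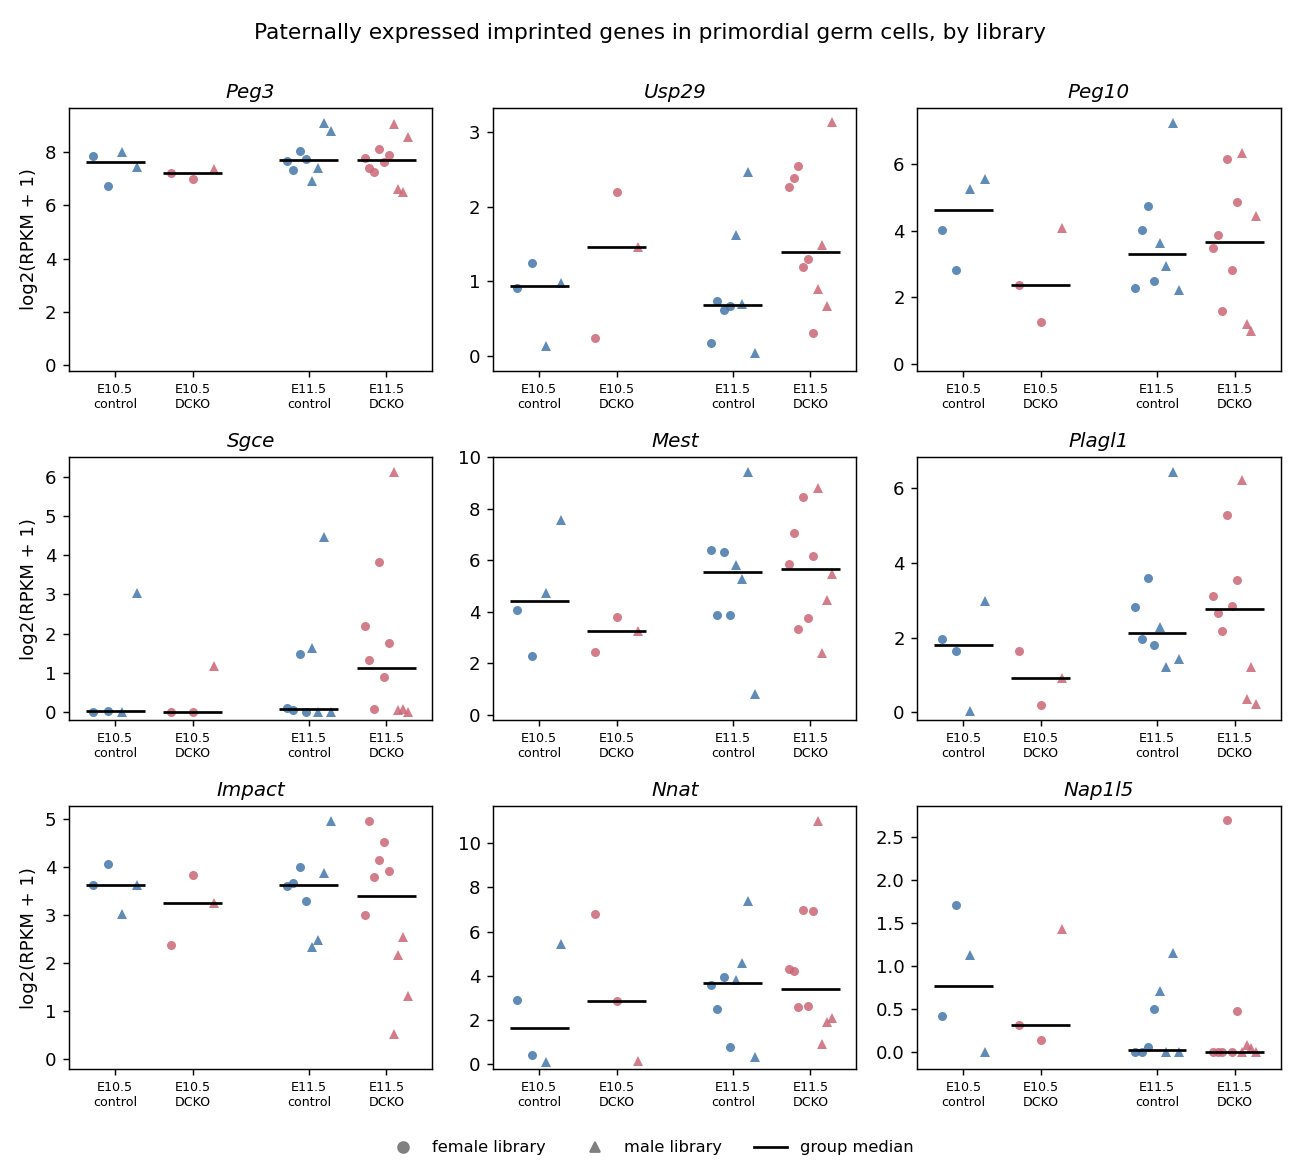
Level of each of the 9 genes in every library, as log2(RPKM + 1), by stage and genotype; circles are female libraries, triangles male libraries and bars group medians. Peg3 lies within a narrow band in all groups, Mest, Plagl1, Nnat, Peg10 and Sgce spread widely within each E11.5 group, and the control and DCKO points overlap for every gene.

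No member passed the test of a difference between DCKO and control PGCs at E11.5. Of the 9 genes, 8 reached the mean of 1 RPKM needed for testing, and 0 of 8 passed the threshold (limma, Benjamini-Hochberg adjusted p under 0.05 over all 12667 genes tested; 3 genes, or 0.0237%, passed in all). At an unadjusted p under 0.05 there were also 0 of 8, with 5.46% of all genes there. The difference was above 0 for 4 of 8 genes with a median of 0.12 on the log2(RPKM + 1) scale, while 45.0% of all genes were above 0 with a median of -0.06. Mest and Plagl1, both near 0, changed sign under quantile normalization. A log2 difference on this scale understates the change of low genes such as Usp29 and Sgce. The genes are taken below by the kind of protein they encode.

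Peg3 and Plagl1 encode zinc finger proteins of the nucleus, and both are linked to growth control in the embryo. Peg3 ran from 119 RPKM over a median of 208 to 545 RPKM in the 8 controls, and from 89.6 over 207 to 535 RPKM in the 10 DCKO libraries. The group medians were thus nearly equal and the ranges overlapped almost entirely. Its log2 difference was -0.18 (SE 0.36, 95% interval -0.94 to 0.57). Plagl1 ran from 1.32 over a median of 3.36 to 86.0 RPKM in controls and from 0.171 over 5.79 to 73.4 RPKM in DCKO. Its log2 difference was -0.06 (SE 0.82, 95% interval -1.77 to 1.66). The interval for Peg3 was less than a doubling wide on either side, and that for Plagl1 allows a change of more than 3-fold in either direction.

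Usp29 encodes a ubiquitin-specific protease and starts beside Peg3 on the opposite strand. It ran from 0.0293 over a median of 0.599 to 4.53 RPKM in controls and from 0.235 over 1.64 to 7.78 RPKM in DCKO. The DCKO median was higher, but both groups held libraries below 1 RPKM and above 4 RPKM. The log2 difference was 0.73 (SE 0.45, 95% interval -0.21 to 1.67; limma adjusted p = 0.912).

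Peg10 and Sgce also share a start region. Peg10 derives from a retrotransposon and is required in the placenta, and Sgce encodes epsilon-sarcoglycan, a membrane protein of muscle and nerve. Peg10 ran from 3.70 over a median of 9.06 to 149 RPKM in controls and from 0.996 over 11.8 to 78.8 RPKM in DCKO, a log2 difference of -0.18 (SE 0.82). Sgce was listed at 0 in 3 of 8 controls and 1 of 10 DCKO libraries. The controls ran from 0 over a median of 0.0533 to 21.0 RPKM, and the DCKO libraries from 0 over a median of 1.19 to 69.0 RPKM. The difference for Sgce was 0.65 on the log2 scale (SE 0.83, 95% interval -1.09 to 2.40). Without male DCKO 1, which held the 69.0 RPKM, it was -0.11.

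Mest encodes a protein of the hydrolase fold found in embryonic mesoderm, and Nnat a small membrane protein of the endoplasmic reticulum known from the developing brain. Mest ran from 0.733 over a median of 47.1 to 692 RPKM in controls and from 4.28 over 50.2 to 450 RPKM in DCKO. Nnat ran from 0.280 over 12.0 to 166 RPKM in controls and from 0.923 over 11.4 to 2046 RPKM in DCKO. In both genes the medians of the groups were close, and both groups held libraries far above and far below them. The log2 difference was 0.30 for Mest (SE 1.03, 95% interval -1.86 to 2.46) and 0.94 for Nnat (SE 1.21, 95% interval -1.60 to 3.48). Without male DCKO 1, Nnat was at -0.23 and Mest at -0.29.

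Impact encodes a regulator of protein synthesis that acts on the kinase GCN2, and Nap1l5 a relative of the nucleosome assembly proteins. Impact ran from 4.06 over a median of 11.4 to 30.1 RPKM in controls and from 0.448 over 9.95 to 30.0 RPKM in DCKO, a log2 difference of -0.67 (SE 0.40, 95% interval -1.52 to 0.17). Nap1l5 was listed at 0 in 10 of 18 libraries and averaged 0.459 RPKM, too low to be tested. Its highest value was 5.49 RPKM in female DCKO 4, and the other 17 libraries were at 1.23 RPKM or less.

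**Figure D2:**
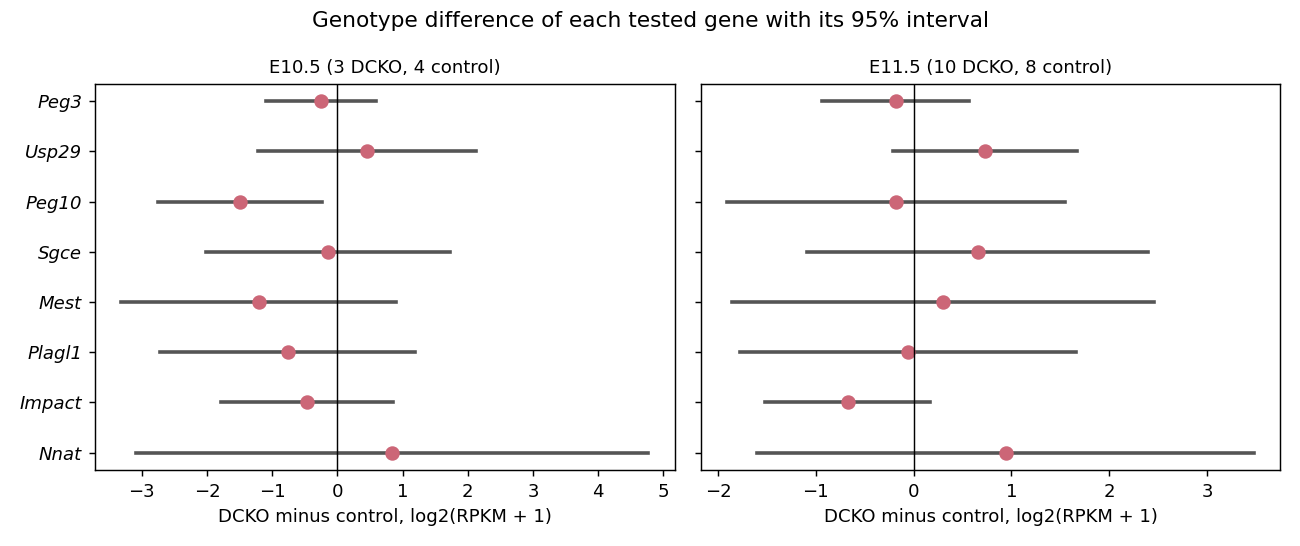
Difference between DCKO and control PGCs for the 8 tested genes, in log2(RPKM + 1), at E10.5 (left) and E11.5 (right); points are limma estimates and bars their 95% intervals. All intervals cross 0 except that of Peg10 at E10.5, whose adjusted p is 0.991; the horizontal axes of the panels differ.

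At E10.5, 0 of 8 tested members passed the threshold, as did 0 of 11584 genes (0%). Peg10 was the only member at an unadjusted p under 0.05, where 3.09% of all genes stood. Its control values were 6.02, 15.2, 36.7 and 46.1 RPKM and its DCKO values 1.41, 4.12 and 15.8 RPKM. The DCKO values lay lower on the whole, but 15.8 RPKM in the male DCKO library was above the 2 female controls. The log2 difference was -1.49 (SE 0.55, 95% interval -2.75 to -0.23, limma adjusted p = 0.991). Male control 2 had the highest level of somatic cell markers at this stage, and without it the difference for Peg10 was -1.45 (adjusted p = 0.914).

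The other members at E10.5 overlapped between genotypes as well. Peg3 was 105, 171, 231 and 258 RPKM in controls and 126, 147 and 164 RPKM in DCKO (log2 difference -0.26, SE 0.37). Mest was 3.81, 16.0, 25.4 and 190 RPKM in controls and 4.37, 8.46 and 12.8 RPKM in DCKO (log2 difference -1.21, SE 0.93). The 190 RPKM came from male control 2, and without that library the Mest difference was -0.54. Impact was 7.10, 11.3, 11.3 and 15.6 RPKM in controls and 4.17, 8.48 and 13.3 RPKM in DCKO (log2 difference -0.47, SE 0.58). Usp29 differed by 0.45 (SE 0.74), Sgce by -0.14 (SE 0.82), Plagl1 by -0.76 (SE 0.86) and Nnat by 0.84 (SE 1.73). Sgce averaged 1.21 RPKM, and without male control 2 it no longer reached the mean of 1 RPKM needed for testing. Nnat was 0.0710, 0.330, 6.50 and 42.8 RPKM in controls and 0.0983, 6.22 and 109 RPKM in DCKO, which shows the spread behind its wide error. In all, 2 of 8 members were above 0, with a median of -0.36, beside 46.8% of all genes with a median of -0.05.

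Within females at E11.5, 0 of 8 members passed the threshold, beside 1 gene of 12667 (0.00789%), and 0 of 8 were at an unadjusted p under 0.05 (2.17% of all genes). Within males, 0 of 8 passed, beside 4 genes (0.0316%), and 1 of 8, Impact, was at an unadjusted p under 0.05 (6.95% of all genes). The direct test of the difference between the sexes called 0 of 8 members and 0 genes (0%), with Impact again the only member at an unadjusted p under 0.05 (3.58% of all genes). Between female and male PGCs 0 of 8 members passed, beside 5 genes (0.0395%). Impact was here too the only member at an unadjusted p under 0.05 (5.70% of all genes).

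Impact thus had the smallest p of the members in males, in the difference between the sexes and between the sexes themselves, although none passed the threshold over all genes. It was 0.448, 1.48, 3.52 and 4.84 RPKM in the male DCKO libraries and 4.06, 4.55, 13.7 and 30.1 RPKM in the male controls. It was 8.72, 11.1, 11.7 and 15.0 RPKM in the female controls, and 7.02 to 30.0 RPKM around a median of 15.3 RPKM in the 6 female DCKO libraries. All 4 male DCKO libraries lay below every female library, and 1 of them, at 4.84 RPKM, lay above 2 male controls. The log2 difference was -1.77 in males (SE 0.60, limma adjusted p = 0.624) and 0.42 in females (SE 0.54, adjusted p = 1.0000). These differed by 2.19 (SE 0.81, limma adjusted p = 0.995). Females were higher than males by 1.32 over both genotypes (SE 0.40, limma adjusted p = 0.774). With libraries weighted by their fit, the male difference was -0.44. In that setting the limma adjusted p of the sex effect for Impact was 0.0639, its smallest over the alternatives. There, 51 genes were called for sex. In males, 0 of 7 gonadal, 0 of 10 mesenchymal and 0 of 3 macrophage markers were above 0 between the genotypes, while 2 of 2 mesonephric and 7 of 11 germ cell markers were, beside 43.8% of all genes; no marker of these lists passed the threshold. With the somatic marker level (described below) held constant in the fit, the male difference for Impact was -1.86 (limma adjusted p = 0.270).

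The members were then set beside the level of somatic cell markers in each library. Some of the members are known from mesoderm, brain or placenta, and sorted cells can carry other cells with them. Each E11.5 library was therefore given the mean log2 level of 26 markers of the somatic gonad, mesenchyme and endothelium, none of them among the 9 genes. This mean was 4.78 in male control 3, 4.00 in female DCKO 4 and 3.70 in male DCKO 1, and 0.36 to 2.58 in the other 15 libraries. The libraries with the 3 highest means were also the 3 lowest in germ cell markers. The summed mesenchyme markers ran from 1.71 to 576 RPKM in controls and from 1.03 to 410 RPKM in DCKO, the gonadal markers from 0.731 to 220 and from 0.959 to 168 RPKM, and 0 of these markers were at 0 in all libraries of a genotype. In such bulk RNA, fewer cells of a type and less RNA per cell cannot be told apart.

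Nnat, Mest, Sgce, Plagl1 and Peg10 rose with this mean, 5 of 8 tested. Over all genes, 11.2% rose and 16.2% changed in either direction. Sgce reached the mean of 1 RPKM needed for testing only through the 3 libraries highest in this mean. Its call is therefore not separate from its entry into the test. Over all 8 tested members the median slope was 1.20, beside 0.03 over all genes. Values here are slopes, in log2 units of the gene per log2 unit of the marker mean, within sex and genotype groups. The slope was 1.72 for Nnat (SE 0.27), 1.53 for Mest (SE 0.20), 1.26 for Sgce (SE 0.14), 1.25 for Plagl1 (SE 0.14) and 1.15 for Peg10 (SE 0.19). Their limma adjusted p ran from 1.61e-05 for Plagl1 to 3.89e-04 for Peg10. Peg3 had a slope of 0.30 (SE 0.12, adjusted p = 0.114), Usp29 of 0.07 (SE 0.17, adjusted p = 0.851) and Impact of -0.10 (SE 0.16, adjusted p = 0.726).

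The levels show the same in RPKM. Mest was 347 to 692 RPKM in the 3 libraries with the highest marker mean and 0.733 to 131 RPKM in the other 15. Plagl1 was 38.3 to 86.0 against 0.171 to 11.2 RPKM, and Sgce 13.2 to 69.0 against 0 to 3.55 RPKM. Peg10 was 70.5 to 149 against 0.996 to 27.7 RPKM, and Nnat 126 to 2046 against 0.280 to 122 RPKM. In these 5 genes the 3 libraries lay above all the others, by a narrow margin for Nnat. Peg3 was 278 to 545 against 89.6 to 440 RPKM, with 2 of the 15 above the lowest of the 3. Usp29 and Impact overlapped throughout, and male DCKO 1 held the lowest Impact value of all, 0.448 RPKM. At E10.5 the mean was taken over the 10 markers averaging 1 RPKM or more there, so its scale differs from that of E11.5. Male control 2 had the highest E10.5 mean, 3.06 beside 0.42 to 1.49 in the others. A marker high in that library passes such a filter more easily. Over all listed markers it was also highest, with means of 1.43 gonadal, 1.67 mesenchymal and 2.58 endothelial. It also had the highest Mest (190 RPKM), Sgce (7.16 RPKM), Plagl1 (6.83 RPKM) and Peg10 (46.1 RPKM). Nnat went otherwise, at 42.8 RPKM in that library and 109 RPKM in female DCKO 1.

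**Figure D3:**
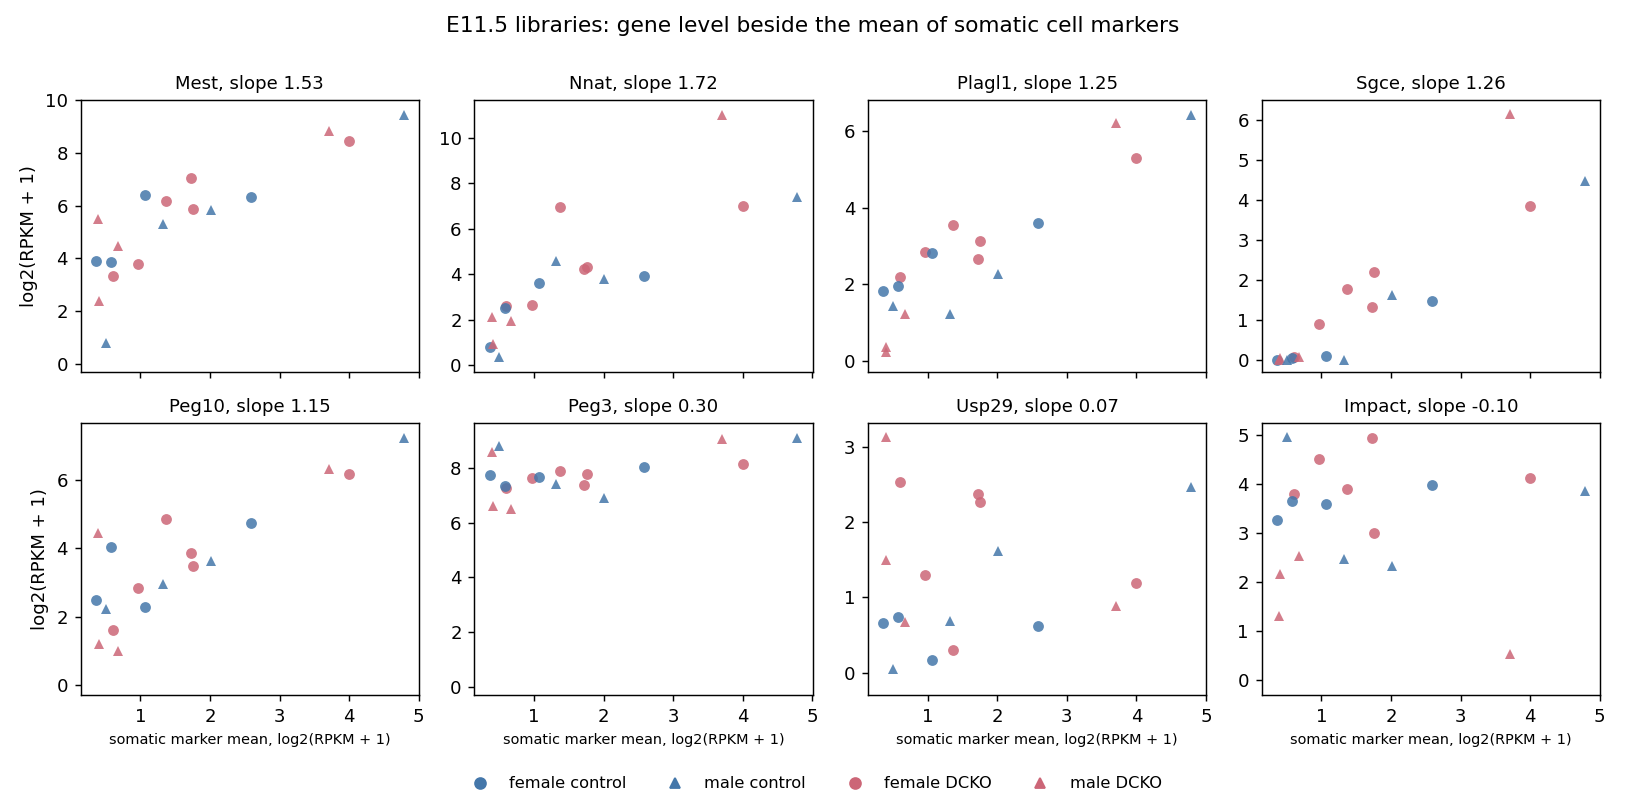
Level of each tested gene against the mean of 26 somatic cell markers in the 18 E11.5 libraries, both in log2(RPKM + 1); colour gives genotype and shape gives sex. Mest, Nnat, Plagl1, Sgce and Peg10 climb from left to right with slopes of 1.15 to 1.72, and the 3 points at the right are the highest; Peg3, Usp29 and Impact show slopes of -0.10 to 0.30.

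These slopes lean on few libraries. Without the 3 highest, 0 of 7 tested members and 0 of 12013 genes passed by limma. At an unadjusted p under 0.05 there were 3 of 7 members and 682 of 12013 genes. Mest then had a slope of 1.97 (limma adjusted p = 0.347), Nnat of 1.53 (limma adjusted p = 0.625), Peg10 of 0.94 and Plagl1 of 0.72, and Sgce no longer reached a mean of 1 RPKM. Of the 4 libraries highest in the markers, 3 share the number before the dash in their sample titles, whose meaning the labels do not give. With the 7 such numbers as a block, 0 of 8 members and 1 of 12667 genes passed. There, 5 of 8 members and 1878 of 12667 genes were at an unadjusted p under 0.05. The slopes of the 5 genes were then 1.26 for Plagl1, 1.40 for Sgce, 1.97 for Peg10, 2.30 for Nnat and 3.24 for Mest. Without the 3 libraries of that title number, the same 5 members passed. Male DCKO 1, with a marker mean of 3.70, then stood apart, the next library being male control 1 at 2.01. How far these calls rest on male DCKO 1 was not tested.

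Holding the marker mean constant left the members without a call in the genotype comparison at E11.5. Over all genes, 2 to 5 passed in that comparison across the alternatives run. The smallest p among members was that of Sgce, with a log2 difference of 0.83 (SE 0.36, 95% interval 0.06 to 1.59, limma adjusted p = 0.608). Sgce entered this test only through the 3 libraries highest in the marker mean, and without them it was too low to be tested. Mest was at 0.51 (SE 0.51), Nnat at 1.17 (SE 0.68), Peg10 at -0.03 (SE 0.48) and Plagl1 at 0.11 (SE 0.35), with smaller errors than before. Without the 3 highest libraries, Usp29 was at 1.10 (SE 0.48, limma adjusted p = 0.727).

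Several members share a start region or overlap a neighbour, and 5 such pairs were compared over the 18 E11.5 libraries. Mest and Copg2, a gene of the vesicle coat that overlaps it on chromosome 6, varied together (Pearson r = 0.90, Spearman rho = 0.88, permutation p = 1.0e-05 and 3.0e-05, adjusted over the 5 pairs 5.0e-05 and 1.5e-04). The first of these p-values is the smallest that 100000 permutations can give. Without the 2 libraries farthest from the Mest median r was 0.84, and without the 3 libraries highest in somatic markers it was 0.84 over 15 libraries (rho = 0.79, adjusted permutation p = 2.5e-04 and 0.0027). The counting is not stated to use strand, so reads of the overlap cannot be assigned to either gene. Copg2 also rose with the somatic marker mean, with a slope of 0.71 (SE 0.13, limma adjusted p = 8.78e-04), below that of Mest.

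Peg10 and Sgce gave r = 0.82 and rho = 0.63 (permutation p = 3.0e-05 and 0.00614, adjusted 7.5e-05 and 0.0154). Without the 2 libraries farthest from the Peg10 median r was 0.73. Without the 3 libraries highest in somatic markers r was 0.58 (adjusted permutation p = 0.0630) and rho 0.36 (adjusted permutation p = 0.283), so the relation was weaker and did not pass the threshold in these 15 libraries. Peg3 and Usp29, which start beside each other in the same way, gave r = 0.06 and rho = -0.09 (permutation p = 0.806 and 0.723, adjusted 0.806 and 0.904). Peg3 exceeded Usp29 by 6.99 ± 0.98 log2 units in controls (SD, n = 8) and by 6.07 ± 1.16 in DCKO (SD, n = 10).

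Nnat lies inside Blcap, and Nap1l5 inside Herc3. Nnat and Blcap gave r = -0.38 and rho = -0.01 (permutation p = 0.114 and 0.974, adjusted 0.190 and 0.974), and r was -0.15 without the 2 libraries farthest from the Nnat median. With the group means and the somatic marker mean taken out of both genes, r was -0.71 for Nnat and Blcap, 0.84 for Mest and Copg2, 0.29 for Peg10 and Sgce, 0.04 for Peg3 and Usp29 and -0.17 for Nap1l5 and Herc3; these are descriptions and were not tested. Nap1l5 and Herc3 gave r = -0.34 and rho = -0.52 (permutation p = 0.160 and 0.0270, adjusted 0.200 and 0.0450), with Nap1l5 listed at 0 in most libraries, and r was -0.22 without the 2 farthest. Without the 3 libraries highest in somatic markers the adjusted permutation p of rho for Nap1l5 and Herc3 was 0.283. None of the 3 neighbours passed the test between genotypes at E11.5, where the log2 difference was 0.85 for Copg2 (SE 0.53), -0.33 for Blcap (SE 0.64) and 0.28 for Herc3 (SE 0.38).

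**Figure D4:**
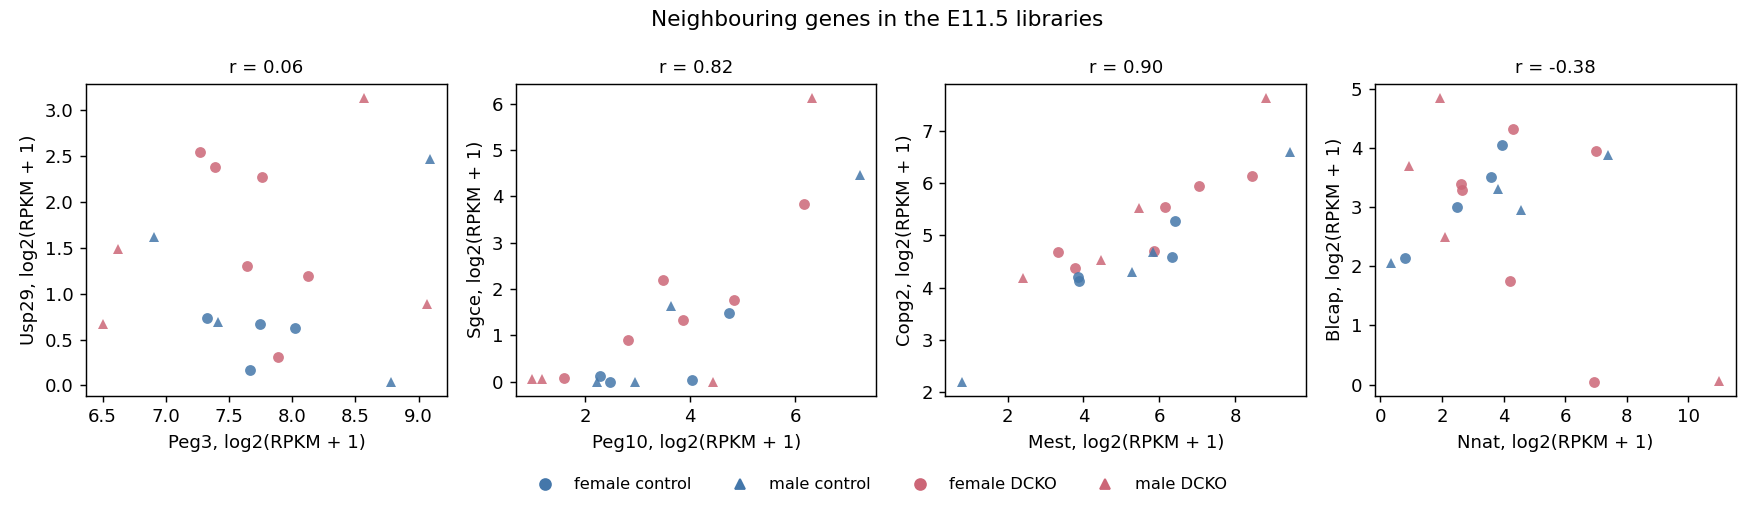
Levels of 4 neighbouring gene pairs in the 18 E11.5 libraries, each axis in log2(RPKM + 1), with Pearson r above each panel; colour gives genotype and shape gives sex. Mest with Copg2 and Peg10 with Sgce form rising bands, and Peg3 with Usp29 and Nnat with Blcap do not.

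The genes whose pattern over the 18 E11.5 libraries was most like that of each member were read from 8710 genes averaging 5 RPKM or more. These correlations are descriptions, since the genes were picked for them, and the libraries share their somatic content. Mest was most like Igf2, the imprinted growth factor (r = 0.97, and 0.95 without the 3 libraries highest in somatic markers), and Sfrp1, a secreted Wnt regulator (r = 0.95 and 0.90). Plagl1 was most like Marcks and the imprinted noncoding RNA H19 (r = 0.94 for both, and 0.83 without the 3 libraries). Sgce was most like Ptprd and the basement membrane collagen Col4a1 (r = 0.94 for both, then 0.77 and 0.85), Nnat like Nfia and Jun (r = 0.94 for both, then 0.86 and 0.81), and Peg10 like Fat4 and Tpm4 (r = 0.93 and 0.91, then 0.82 and 0.79). Peg3 went with Tcf4 and the RNA helicase Ddx17 (r = 0.91 and 0.90, then 0.87 for both). Usp29 went with Zfp512 and Vapb (r = 0.79 and 0.78), and Impact with Dpm3 and Sms (r = 0.86 for both). The nearest genes listed differed between all members, with or without a called slope. For Nap1l5 the nearest were the microRNA genes Mir3067 and Mir5623 (r = 0.91 and 0.88), whose median is 0 RPKM.

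By genotype at E11.5, other imprinted genes gave no call either. Over all genes 3 of 12667 passed, and 45.0% were above 0 with a median of -0.06. The lists were not tested against all genes. Of 10 tested paternally expressed genes outside this set, 0 passed the threshold and 8 were above 0, with a median of 0.15. The 3 with the smallest p were Peg12 (log2 difference -1.24, SE 0.43, limma adjusted p = 0.884), Ndn (-1.08, SE 0.55) and Nespas (0.35, SE 0.40). Of 12 tested maternally expressed genes, 0 passed and 7 were above 0, with a median of 0.09; the smallest p belonged to Zim1 (-0.86, SE 0.57), Ube3a (0.49, SE 0.38) and Phlda2 (-0.95, SE 0.75). Of 18 tested neighbours of the members, 0 passed, with Cabyr (-1.23, SE 0.57), Copg2 and Zim1 at the smallest p. Of 13 factors that protect or erase methylation, 1 fell, Dnmt1 itself.

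The same lists were counted along the somatic marker mean, where 11.2% of all genes rose and 16.2% changed. As for the members, no gene passed without the 3 highest libraries (0 of 12013), and 1 of 12667 did with the title-number block. Of the maternally expressed genes, 8 of 12 rose, among them Zim1 (slope 0.74, limma adjusted p = 0.00148), and 0 fell, with a median slope of 0.83. Of the other paternally expressed genes 1 of 10 rose and 1 fell, with a median of 0.11. Of the neighbours 5 of 18 rose and 0 fell, and of the methylation factors 5 of 13 rose and 3 fell, while Dnmt1 had a slope of -0.02 (SE 0.14). Of the germ cell markers 7 of 11 fell, beside 630 of 12667 genes, and 0 of 11 had a slope above 0. The difference between these lists was not tested.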

How the data were processed

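RNA of sorted PGCs was measured in 37 labelled samples, of which 25 were used, 7 from E10.5 and 18 from E11.5. Of the rest, 12 from E13.5, nothing is reported. In the tables the authors deposited, 1 per stage, values are in RPKM. Per the submitters' processing notes, mm9, TopHat2 2.1.0, Cufflinks 2.2.1 and Cuffdiff were used, with no word on which made these tables; gene models and lengths are not given. No steps of whole reads were seen in the values, so depth is unknown and no counting interval is given.

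Two-sided tests were run on log2(RPKM + 1) in limma 3.58.1 (R 4.3.3) with a trend, on genes averaging 1 RPKM or more, with Benjamini-Hochberg adjustment over all of them and a threshold of 0.05. The E11.5 model held the 4 groups of sex and genotype, and its genotype effect averages both sexes. The E10.5 model held additive genotype and sex. The slope on the somatic marker mean was added to the 4 group means. The code was tested on simulated data. Alternatives were pseudocounts of 0.1 and 0.5, other filters, scalings, weights, models and blocks, and leaving out libraries. The pair correlations, and slopes without the 3 highest libraries, by marker list or by title number, were chosen after seeing the data.

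The members and lists were chosen with earlier results of these data known. Genes named were the members, Dnmt1, genes of 4 lists that passed in the E11.5 genotype effect (else the 3 lowest in p), Copg2, Blcap, Herc3 and the 2 genes most like each member. Marker lists of germ, gonadal, mesenchymal, endothelial, erythroid, macrophage, mesonephric and neuronal cells had 0 genes called in that effect, beside 3 of 12667 genes. No pairing of libraries was assumed.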

Additional observations from a re-analysis of the deposited data

Results flagged for a closer look

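Of 36 sets of 4 or 6 E11.5 libraries (each member in each sex and genotype), 6 held a library far from the rest by Dixon's criterion on log2(RPKM + 1); chance gives about 1 in 20. In male DCKO, replicate 1 was far above the others for Sgce (69.0 RPKM, next 0.0455), Plagl1 (73.4 RPKM, next 1.31) and Nnat (2046 RPKM, next 3.32), and it has the highest somatic marker mean of its group, 3.70. Sgce was 1.79 RPKM in female control 3, next 0.0798, where the somatic marker mean was 2.58, the highest of its group. Nap1l5 was 5.49 RPKM in female DCKO 4, next 0.387, the library with the highest marker mean of its group, 4.00. Nap1l5 was 0.409 RPKM in female control 4, next 0.0353, and that library has the lowest marker mean of all, 0.36. The part of the marker level in these values was not tested.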

How the results depend on the processing

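Across all alternatives run, 0 members passed in any comparison by genotype or sex. Directions of small differences changed. At E11.5, Mest was -0.0375 under quantile normalization and -0.54 with library weights, Nnat -0.16 with library weights, and Plagl1 0.014 under quantile normalization, 0.016 with additive genotype and sex and 0.11 with the somatic marker mean as covariate. At E10.5, Sgce was 0.19 with a pseudocount of 0.1 and 0.055 with the replicate block. For slopes, Usp29 was -0.11 under quantile normalization, -0.10 without the 2 libraries farthest from the median marker mean and -0.14 without the title number of the highest library, Impact 0.15 with library weights, and Peg3 -0.15 without the 3 highest libraries and -0.00556 with the block by title number. Peg3 passed under quantile normalization and library weights, and without male control 4 or male DCKO 4, giving 6 members instead of 5.

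Leaving out each library in turn, the E11.5 differences ran from -0.41 to 0.014 for Peg3, -0.70 to 0.35 for Peg10, -0.11 to 1.14 for Sgce, -0.46 to 0.98 for Mest, -0.76 to 0.54 for Plagl1 and -0.23 to 1.50 for Nnat. At E10.5 they ran from -0.56 to 0.012 for Peg3 and -0.72 to 3.16 for Nnat, and the slopes ran from -0.14 to 0.19 for Usp29 and -0.24 to 0.033 for Impact. The cause was not tested.

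Members called by the slope numbered 0 without the 3 highest libraries and 0 with the block by title number. Genes called ran from 2 to 5 for the E11.5 genotype effect, 1 to 4 in females, 1 to 7 in males, 0 to 1 for the difference between the sexes, 4 to 51 for sex (51 with library weights), 0 to 11 at E10.5 (11 without male DCKO 1) and 0 to 2828 for the slope (954 without male control 3, 1369 without male DCKO 1, 1149 at a mean of at least 5 RPKM, 751 without the 2 farthest, 1099 without the shared title number). The replicate blocks by replicate number and title number called 0 members in each genotype comparison. The deviations of libraries with the same replicate number correlated above 0.1 in 5 of 24 pairs at E11.5 and 0 of 6 at E10.5. For libraries with the same title number it was 7 of 16 pairs at E11.5 (median r = 0.081, highest 0.49, beside a median of -0.0046 for other pairs) and 0 of 5 at E10.5. As not every pair was above 0.1 and the labels give no meaning to either number, neither was taken to pair the libraries. Quantile normalization moved the median of all genes in males by 0.11. Depth is unknown, so low values such as those of Usp29, Sgce and Nap1l5 come with no estimate of counting error.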
